A study of Homo sapiens with 4 samples.

Results

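The genes described here are the Wnt ligands, their receptors, the secreted Wnt inhibitors and the intracellular carriers of the signal that the arrays hold. They were chosen by name alone: gene symbols that are WNT, FZD, SFRP or DKK followed by a digit, together with *FRZB*, *WIF1*, *AXIN1*, *AXIN2*, *LEF1*, *TCF7*, *TCF7L1*, *TCF7L2*, *CTNNB1*, *LRP5* and *LRP6*. The rule found 54 of 33096 gene probes. Averaging probes with the same Celera gene ID, the gene identifier of the array design, gave 51 of 27739 features for 48 genes. There were 21 ligand features of 19 genes, 13 receptor features of 12 genes, 10 features of secreted inhibitors and 7 intracellular features.

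LN229, an established human glioblastoma line, was transfected with siRNA against *SOX2*, a transcription factor of stem cells, or with a non-targeting siRNA (mock knockdown), and total RNA was hybridised to 1-colour Applied Biosystems Human Genome Survey arrays read by chemiluminescence. The stated aim of the comparison was to find genes that *SOX2* controls in glioma cells. Each group had 2 arrays, which the study's methods describe as separate transfections, and both groups were grown in DMEM and received an siRNA. The knockdown was transient, was made in 1 line, and the sources used here do not state which *SOX2* siRNA went onto the arrays. In 1 field of the labels, that on treatment, the line is SW620 (from a colon cancer), and it is LN229 in the others. Of 12 glioma and mesenchymal markers 10 were above background on all 4 arrays and *CHI3L1* on none. Their summed scaled signal, in which the brightest probes weigh most, was 194 and 243 in mock cells and 185 and 173 after knockdown. It was lower on both knockdown arrays, but the mock arrays differed more from each other than mock array 1 did from knockdown array 1. *FABP7*, a marker of radial glia, had a ratio of 0.492 and *CD44* one of 1.03, and those of the other markers are not given here. Of 13 colon markers 6 were above background on all 4 arrays, *KRT20* and *CDH17* on none and *EPCAM* on 1. The colon sum was 20.3 and 55.8 on mock arrays 1 and 2 and 29.7 and 54.2 on knockdown arrays 1 and 2, most of it *CDH1* (13.9, 49.2, 22.0 and 46.7), so that it moved with the replicate number and its groups overlapped. The part of these markers in any Wnt result was not tested.

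Scaled signal below is the scanner's normalized signal divided by the 75th percentile of all features on the same array. A feature counted as above background where its signal-to-noise ratio (S/N) was over 3, and between 63.8% and 69.4% of probes passed this on each array. Signals of different probes are not set against each other, since brightness also depends on the probe. The *SOX2* signal itself was 0.454 and 0.682 in mock cells, against 0.204 and 0.145 after knockdown. That is a ratio of 0.308, with no overlap between the groups. S/N for *SOX2* was 5.17 and 13.6 in mock cells. After knockdown it was 3.17 and 3.06, just over the cutoff of 3.

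Wnt proteins are secreted, lipid-modified ligands that bind frizzled receptors at the cell surface. Together with the co-receptors LRP5 and LRP6 they stop a complex built on axin from marking beta-catenin for breakdown, and beta-catenin then enters the nucleus and acts with the TCF and LEF factors. Other Wnt proteins, among them WNT5A and WNT11, are better known for signalling through frizzled receptors to the cytoskeleton and calcium without beta-catenin. The pathway governs neural stem cell growth and has been studied widely in glioma, and dickkopf proteins, secreted frizzled-related proteins and WIF1 hold it back outside the cell.

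After *SOX2* knockdown the secreted inhibitor *DKK1* gave a 4.27-fold higher signal by the replicate means, and the receptors *FZD9* and *FZD3* gave lower signals, at 0.445 and 0.486 of mock. The inhibitor *FRZB* and one of the features of the ligand *WNT9A* went from background in mock cells to low signals above it, so that no exact fold can be given for them. Both exceeded 2-fold in the ratio of the replicate means as measured. A 2-fold cutoff on replicate means, with no test, is the criterion in the study's methods. Past it there were 5 of the 32 Wnt features that were kept, 3 higher and 2 lower, where the background over all 18378 kept features was 2.38% in either direction, 1.47% higher and 0.909% lower. By limma with Benjamini-Hochberg adjustment over all kept features, 0 of the 32 had an adjusted p under 0.05, as had 0.0% of all features. At an adjusted p under 0.1 there were 2, *DKK1* and *FZD9*, against 0.903% of all features. At an unadjusted p under 0.05 limma counted 11, of which 6 were higher and 5 lower. The shares of all features were 17.2% in either direction, 8.12% higher and 9.07% lower. *SOX2* itself had a limma adjusted p of 0.114. The median log2 change was 0.09 over the 32 Wnt features and 0.00 over all kept features, and -0.04 for both after normexp background correction, which models the background and removes it. Under that correction *DKK1* alone of the 5 stayed past 2-fold, while over all kept features the number past 2-fold went from 438 to 176.

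To be kept, a feature needed an S/N over 3 on each array of one group or of both. Of the 51 Wnt features 25 met this in both groups, 5 only after *SOX2* knockdown (*AXIN2*, *WNT7A*, 1 of the *WNT9A* features, *FZD3* and *FRZB*) and 2 only in mock cells (*WNT3A* and *DKK2*), while 19 met it in neither group and 14 of those were over 3 on no array. Since a feature can enter through the group in which it is bright, the counts over kept features are descriptions. The kept share was 62.7% of the Wnt features and 66.3% of all features, with 10 of 21 ligands, 10 of 13 receptors, 5 of 10 secreted inhibitors and 7 of 7 intracellular features. In bulk RNA, fewer cells with a transcript and less of it per cell cannot be told apart.

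**Figure D1:**
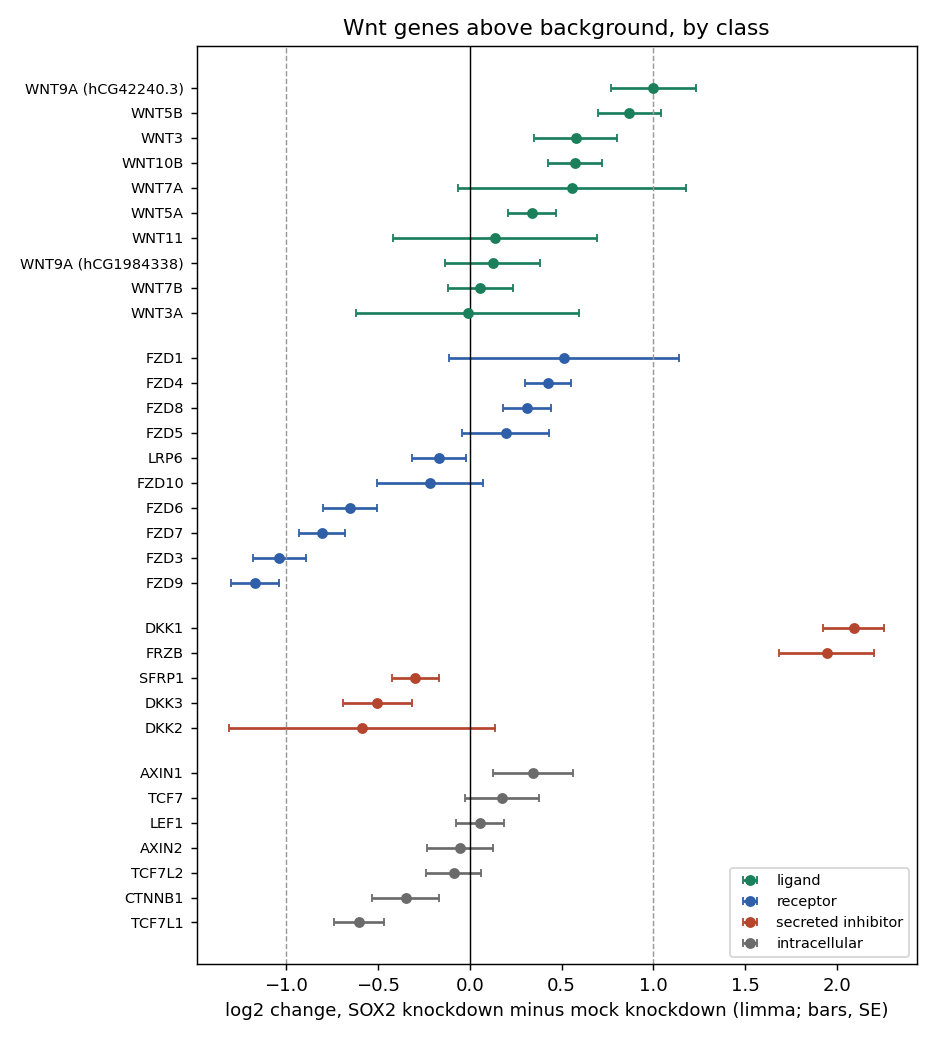
Log2 change of each kept Wnt feature, *SOX2* knockdown minus mock, with its standard error from limma (n = 2 arrays per group), by class. Dashed lines mark a 2-fold change, and the 4 lowest frizzled receptors and the separation of *DKK1* and *FRZB* from the other inhibitors can be read from it.

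The promoters of the 3 Wnt features with the largest fitted changes are shown for sequence context. The fitted change of *FRZB*, which is 1 of them, rests on mock signals at background. Each sequence is the 250 bases before the RefSeq start of the gene on assembly GRCh38.p14, read 5′ to 3′ on the strand of the gene. *DKK1* lies on the + strand (chr10:52314031-52314280), *FRZB* on the - strand (chr2:182866638-182866887) and *FZD9* on the + strand (chr7:73433528-73433777). Capitals mark the TCF and LEF motif (CTTTGAT or CTTTGAA, both strands), the SOX motif (ATTGTT, both strands) and the TATA box (TATAAA, strand of the gene).
DKK1: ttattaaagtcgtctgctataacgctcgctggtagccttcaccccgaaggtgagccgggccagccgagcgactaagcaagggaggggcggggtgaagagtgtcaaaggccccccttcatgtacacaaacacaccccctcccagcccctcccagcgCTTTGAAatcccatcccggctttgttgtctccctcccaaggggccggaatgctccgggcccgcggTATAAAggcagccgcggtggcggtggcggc
FRZB: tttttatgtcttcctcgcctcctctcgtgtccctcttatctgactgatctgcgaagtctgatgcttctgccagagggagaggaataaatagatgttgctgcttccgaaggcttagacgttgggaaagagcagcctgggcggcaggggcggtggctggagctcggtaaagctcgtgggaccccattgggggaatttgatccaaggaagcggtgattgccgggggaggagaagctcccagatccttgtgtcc
FZD9: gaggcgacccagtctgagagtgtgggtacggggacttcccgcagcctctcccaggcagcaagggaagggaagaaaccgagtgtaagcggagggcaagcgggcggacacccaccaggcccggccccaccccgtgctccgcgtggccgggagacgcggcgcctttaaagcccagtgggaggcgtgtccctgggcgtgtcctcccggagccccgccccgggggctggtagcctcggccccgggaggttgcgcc
The *DKK1* window held CTTTGAA 95 to 89 bases before the start and TATAAA 30 to 25 bases before it, while none of the letters searched was in the *FRZB* or *FZD9* window. Of 35116 promoter windows of this length listed by RefSeq, 5.94% held the TCF and LEF motif, 8.98% the SOX motif and 6.80% the TATA box. Among 40 windows of 34 Wnt genes these were found in 1 (*DKK1*), 1 (*TCF7L2*) and 2 (*DKK1* and *FZD8*). GC content was 62.8% for *DKK1*, 55.6% for *FRZB* and 72.4% for *FZD9*, with medians of 69.8% over the Wnt windows and 58.0% over all. No table entry was used for 14 of the Wnt genes, *FZD3* among them. These matches describe letters in a window and no factor's binding was measured on these arrays.

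Of the 10 kept ligand features 9 had a positive log2 change and 1, *WNT3A*, a negative one close to 0 (-0.01 ± 0.61, SE). In 5 of them both knockdown arrays lay above both mock arrays and in 0 below. Over all kept features the groups did not overlap in 47.2% (21.6% higher and 25.7% lower). Among the 5 is a *WNT9A* feature (hCG42240.3) that was kept through the knockdown group, in which it was higher. The other *WNT9A* feature is also among the 10, and its groups overlapped. The median change of the ligands was 0.45, and 0.19 after normexp with 8 positive. Without mock array 2 the positive ligands were 5 of 10 and the median 0.15, and without knockdown array 2 they were 6 of 10 and 0.28. With mock array 1 or knockdown array 1 left out all 10 were positive. Beside the features past 1.5-fold, members are named below for their role after their values were seen.

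*WNT5B*, a ligand of the beta-catenin-independent branch, gave 0.210 and 0.243 in mock cells and 0.460 and 0.371 after knockdown. The groups did not overlap, the ratio was 1.83, and the log2 change was 0.87 ± 0.17 (SE, n = 2 per group, limma adjusted p = 0.135). *WNT3*, a ligand that acts through beta-catenin, gave 0.119 and 0.113 in mock cells and 0.142 and 0.211 after knockdown. Both knockdown arrays were higher, and the ratio was 1.52 (log2 change 0.58 ± 0.23, limma adjusted p = 0.313), with the knockdown arrays differing more from each other than the mock arrays did. *WNT10B* and *WNT5A* had smaller differences in the same direction, with ratios of 1.49 and 1.27 and groups that did not overlap. Their log2 changes were 0.57 ± 0.15 and 0.34 ± 0.13.

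*WNT9A* was measured by 2 features that did not behave alike. The feature hCG42240.3 gave 0.0305 and 0.0255 on the mock arrays, where S/N was 2.74 and 1.97, and 0.0463 and 0.0670 after knockdown. Since the mock signals were not above background, the signal was at least 1.55-fold higher, with each mock signal set to 3 times its own error. The measured values gave a fitted log2 change of 1.0 ± 0.23 (limma adjusted p = 0.161), which is no bound, and the feature was kept through the group in which it was higher. The feature hCG1984338, whose probe has no accession in the files, gave 1.55 and 1.0 in mock cells and 1.24 and 1.49 after knockdown. Its groups overlapped, with a ratio of 1.07 (log2 change 0.13 ± 0.26). *WNT7B* also had 2 features: one overlapped between the groups (0.623 and 0.539 against 0.538 and 0.675) and the other was over an S/N of 3 on no array.

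*WNT11*, *WNT7A* and *WNT3A* differed more between replicates than between groups. *WNT11* gave 1.19 and 0.474 in mock cells and 0.602 and 1.13 after knockdown. *WNT7A* gave 0.148 and 0.0453 against 0.0984 and 0.147, and *WNT3A* 0.138 and 0.0750 against 0.0593 and 0.172. For all of them mock array 1 and knockdown array 2 were the brighter ones, and the standard errors of their log2 changes were 0.55, 0.62 and 0.61. The 11 ligand features that were not kept were those of *WNT1*, *WNT2*, *WNT2B*, *WNT4*, *WNT6*, *WNT8A*, *WNT8B*, *WNT9B*, *WNT10A* and *WNT16* and the dim *WNT7B* feature, of which 8 were over an S/N of 3 on no array.

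Among the frizzled receptors the differences ran both ways. Of the 9 kept frizzled features 4 were over 1.5-fold lower (*FZD9*, *FZD3*, *FZD7* and *FZD6*) and 0 were over 1.5-fold higher, where 4.78% of all kept features were over 1.5-fold lower, 5.08% higher and 9.86% in either direction. The other 5 had log2 changes between -0.22 and 0.51. The median of the 9 was -0.22, and that of all 10 kept receptor features -0.19.

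*FZD9*, a frizzled receptor of neural precursors whose promoter is shown above, gave 0.398 and 0.431 in mock cells and 0.177 and 0.193 after knockdown. Every knockdown signal was less than every mock signal, the ratio was 0.445 and the log2 change -1.17 ± 0.13 (SE, n = 2 per group, limma adjusted p = 0.0879). *FZD3*, a receptor known for its part in axon growth and tissue polarity, gave 0.260 and 0.304 in mock cells and 0.140 and 0.134 after knockdown. The groups stood apart (ratio 0.486, log2 change -1.04 ± 0.14, limma adjusted p = 0.101), although S/N was only 2.39 on mock array 1 and the feature was kept through the knockdown group, in which it was lower.

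*FZD7*, a receptor that passes Wnt signals to beta-catenin in stem cells, gave 0.831 and 0.789 in mock cells and 0.479 and 0.450 after knockdown. The knockdown arrays were again both below the mock arrays, with a ratio of 0.574 and a log2 change of -0.80 ± 0.13 (limma adjusted p = 0.110). Of its 2 probes 1 carried this signal (ratio 0.570) and the other was at background on all 4 arrays. *FZD6*, which is better known for cell polarity and can restrain beta-catenin signalling, gave 1.61 and 1.35 in mock cells against 0.962 and 0.918. It did not overlap between the groups either, with a ratio of 0.634 (log2 change -0.65 ± 0.15, limma adjusted p = 0.158).

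*FZD4*, the receptor for norrin as well as Wnt ligands in vessels, and *FZD8* were higher after knockdown on both arrays, by less than 1.5-fold. Their ratios were 1.35 and 1.24 (log2 changes 0.43 ± 0.13 and 0.31 ± 0.13). *FZD1* gave 0.271 and 0.959 on the mock arrays, which enclosed the 0.741 and 0.714 of the knockdown arrays, so that its log2 change of 0.51 had a standard error of 0.63. *FZD5* and *FZD10* overlapped between the groups, and *FZD2* was not kept.

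The co-receptor *LRP6*, which is phosphorylated when a Wnt ligand is bound, gave 0.605 and 0.627 in mock cells and 0.599 and 0.502 after knockdown on the feature above background. Its ratio was 0.894 (log2 change -0.17 ± 0.15, limma adjusted p = 0.677). The other *LRP6* feature was at background on all 4 arrays, with signals between 0.010 and 0.0212. *LRP5* gave 0.124 and 0.215 against 0.177 and 0.141 and was above background on 1 array only, so no change was fitted.

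**Figure D2:**
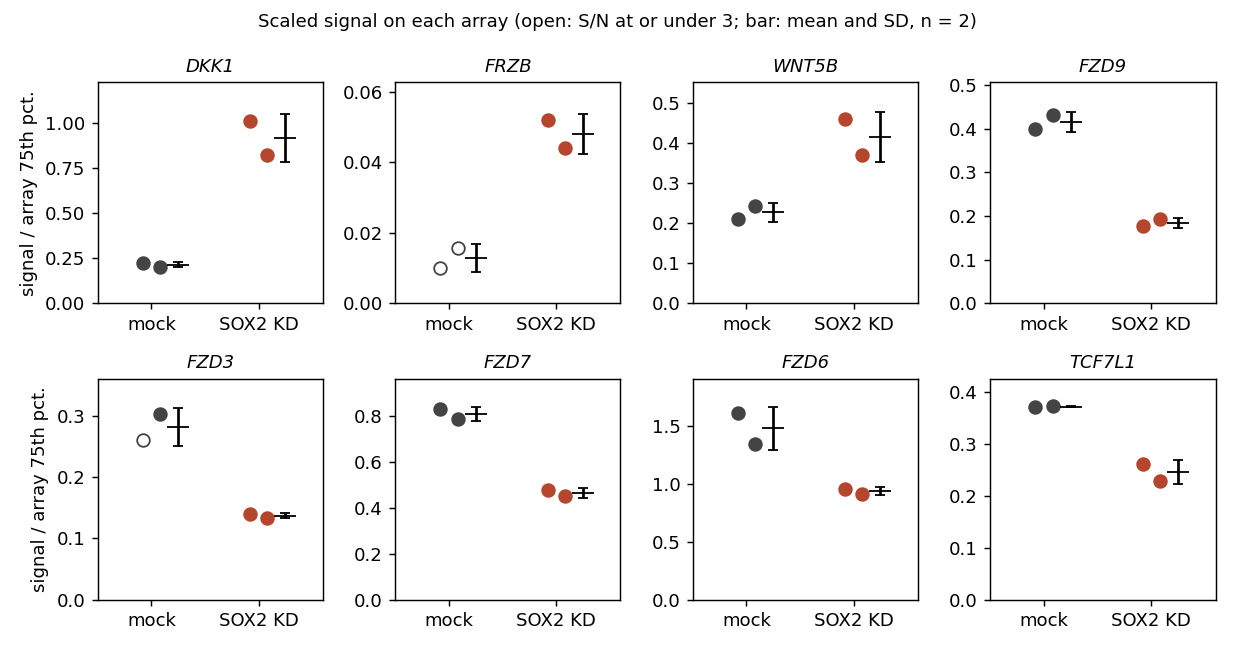
Scaled signal (signal divided by the 75th percentile of the array) of 8 Wnt genes on each of the 4 arrays, with the mean and SD of each group (n = 2); open circles have an S/N of 3 or less. In all 8 panels the knockdown arrays lie on one side of the mock arrays, higher for *DKK1*, *FRZB* and *WNT5B* and lower for the frizzled receptors and *TCF7L1*. The panels are a choice from the 11 kept features past 1.5-fold. *WNT3*, *WNT9A* and *DKK2* are not shown, and *DKK2* overlapped between the groups. Over all kept features the groups did not overlap in 47.2%.

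Of the 10 secreted inhibitors 5 were kept: 2 were higher past the 2-fold cutoff and 3 had negative log2 changes, with a class median of -0.30 that turned to 0.23 without mock array 1 and 0.09 without knockdown array 1. *DKK1*, which binds LRP5 and LRP6 and keeps them from the Wnt receptor complex, gave 0.226 and 0.204 in mock cells and 1.01 and 0.823 after knockdown. The knockdown signals were several times those of mock cells on both arrays, with means of 0.918 ± 0.135 and 0.215 ± 0.016 (SD, n = 2). The log2 change was 2.09 ± 0.16 (limma adjusted p = 0.0701), close to the smallest adjusted p of any kept feature, 0.0700. Of its 2 probes 1 was above background on all 4 arrays (0.457 and 0.416 against 2.05 and 1.67) and 1 on none.

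*FRZB*, a secreted frizzled-related protein that binds Wnt ligands, gave 0.010 and 0.0156 in mock cells and 0.0521 and 0.0441 after knockdown. S/N was 0.16 and 0.80 in mock cells, which is background, and 16.1 and 6.54 after knockdown. No lower bound on the fold is given, since 3 times the mock error (signal divided by S/N) exceeded the knockdown signals. The feature was kept through the group in which it was higher, so that the fitted log2 change of the measured values (1.94 ± 0.26, limma adjusted p = 0.101) and the lack of overlap are descriptions. With a floor of 0.05 the log2 change was 0.03.

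*DKK3*, a divergent member of the dickkopf family, was bright on all arrays, with 10.2 and 11.3 in mock cells and 8.75 and 6.57 after knockdown. Both knockdown arrays were lower, at a ratio of 0.712 (log2 change -0.50 ± 0.19, limma adjusted p = 0.298). *SFRP1*, which binds Wnt ligands and frizzled receptors, was lower in the same way (1.96 and 1.87 against 1.62 and 1.5, ratio 0.815, log2 change -0.30 ± 0.13). *DKK2* followed the replicate pattern of *WNT11*, with 0.0915 and 0.0297 in mock cells and 0.0217 and 0.0556 after knockdown. These overlapped, and the log2 change was -0.59 ± 0.72 (limma adjusted p = 0.791).

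*DKK4*, *SFRP2*, *SFRP4*, *SFRP5* and *WIF1* were over an S/N of 3 on no array and have no fitted change. The scaled signals of *WIF1*, which binds Wnt ligands directly, were 0.0161 and 0.0170 in mock cells and 0.0362 and 0.0310 after knockdown with S/N at or under 0.41. Such signals have no fold that can be read.

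**Figure D3:**
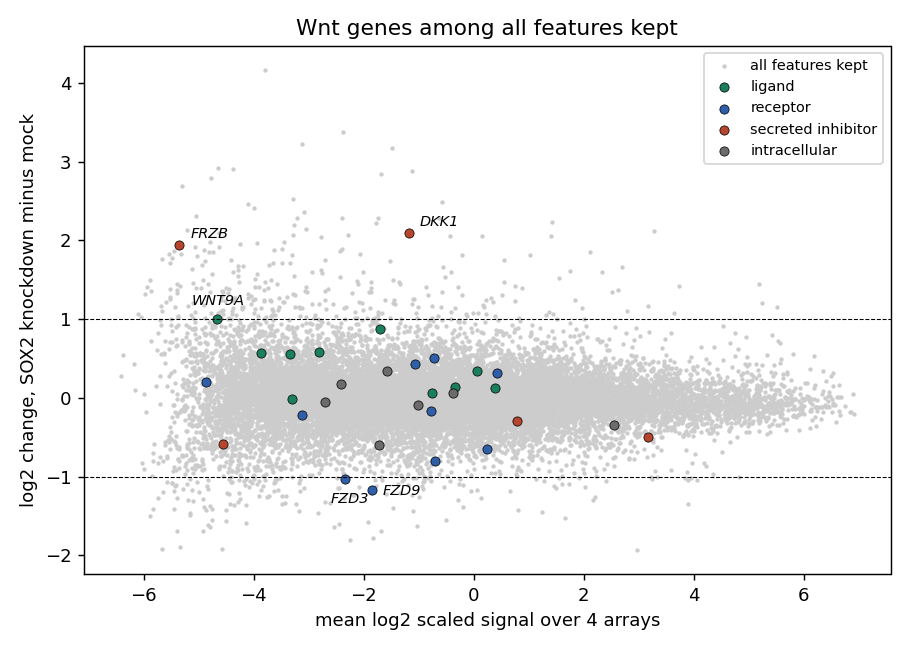
Log2 change, *SOX2* knockdown minus mock, against mean log2 scaled signal over the 4 arrays for all 18378 kept features (grey) and the 32 kept Wnt features (coloured by class). Dashed lines mark 2-fold; *DKK1* lies above its line at moderate signal, while *FRZB* and *WNT9A* lie at the low end of the signal range, where many features of no particular group pass the lines as well.

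All 7 intracellular features, which carry or restrain the signal inside the cell, were kept, none passed the 2-fold cutoff and the median log2 change was -0.05, with values between -0.20 and 0.11 when 1 array was left out. *CTNNB1*, which encodes beta-catenin, gave 6.44 and 6.77 in mock cells and 5.98 and 4.50 after knockdown. Both knockdown arrays were lower, at a ratio of 0.793, with a log2 change of -0.35 ± 0.18 (limma adjusted p = 0.440). *TCF7L1*, a TCF factor known mainly as a repressor in stem cells, had the largest difference of the class, with 0.371 and 0.372 in mock cells and 0.262 and 0.229 after knockdown. The groups stood apart, at a ratio of 0.661 (log2 change -0.60 ± 0.14, limma adjusted p = 0.158).

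The other TCF and LEF factors overlapped between the groups. *LEF1* gave 0.734 and 0.786 against 0.819 and 0.761 (log2 change 0.06 ± 0.13), and *TCF7* 0.162 and 0.191 against 0.230 and 0.172 (0.18 ± 0.20). *TCF7L2*, a TCF factor of gut and oligodendrocyte development, gave 0.483 and 0.539 against 0.520 and 0.444 (log2 change -0.09 ± 0.15), and its 2 probes had ratios of 1.04 and 0.886.

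*AXIN1*, the scaffold of the complex that marks beta-catenin, gave 0.356 and 0.248 in mock cells and 0.360 and 0.395 after knockdown. The knockdown arrays were both higher, by a margin that was small beside the difference between the mock arrays (ratio 1.25, log2 change 0.35 ± 0.22, limma adjusted p = 0.519). *AXIN2*, a scaffold whose transcription beta-catenin itself switches on, gave 0.164 and 0.149 against 0.171 and 0.132. The groups overlapped, with a ratio of 0.971 and a log2 change of -0.05 ± 0.18 (limma adjusted p = 0.946). S/N was 2.75 and 2.33 in mock cells and 3.88 and 4.28 after knockdown.

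Compared over replicates, 4 of the 32 kept Wnt features (12.5%) differed over 2-fold between the mock arrays, *WNT11*, *WNT7A*, *FZD1* and *DKK2*, against 3.46% of all kept features. Between the knockdown arrays 2 did (6.25%), *WNT3A* and *DKK2*, against 1.63% of all. Between replicates the absolute log2 difference had a median of 0.18 (mock) and 0.26 (knockdown) for the Wnt features and 0.22 and 0.16 for all kept features. None of the features past the 2-fold cutoff was among those that differed over 2-fold between replicates. That describes only 5 features and is no test of them, and the *FRZB* signal on mock array 1 was at the floor of 0.01.

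**Figure D4:**
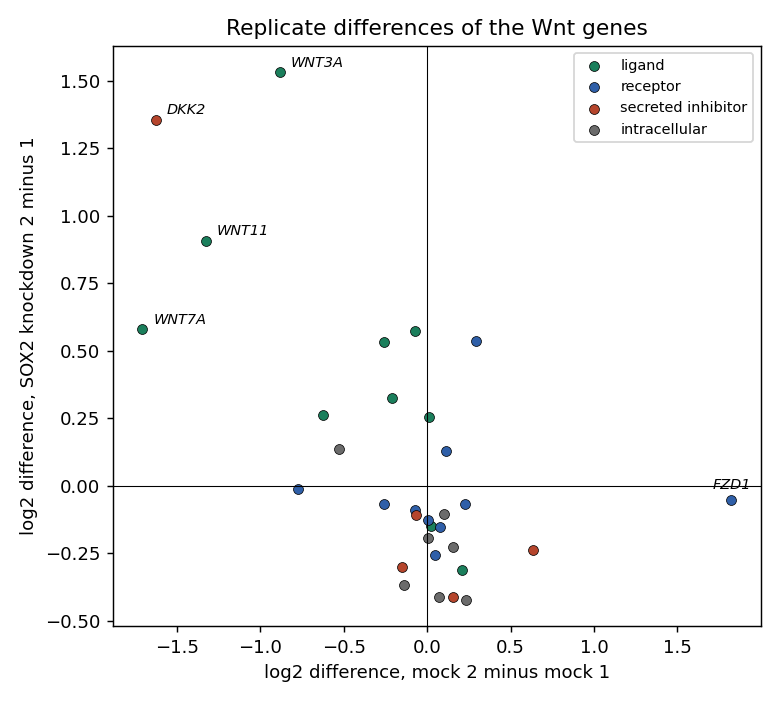
Log2 difference between the knockdown arrays (2 minus 1) against that between the mock arrays (2 minus 1) for the 32 kept Wnt features, coloured by class. *WNT11*, *WNT7A*, *WNT3A* and *DKK2* lie at the upper left, lower on mock array 2 and higher on knockdown array 2, and *FZD1* lies at the far right.

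Further genes of the pathway were read from a list by textbook role: secretion, R-spondins and their receptors, other receptors, the destruction complex, nuclear partners and the polarity and calcium branch. Of 78 such features 65 were kept and 2 passed the 2-fold cutoff, both lower, where 2.38% of all kept features passed it and 0.909% were lower. *APC2*, a relative of APC with prominent expression in brain, gave 0.0562 and 0.0368 in mock cells and 0.0188 and 0.0180 after knockdown. It was not above background on the knockdown arrays, and its signal in mock cells was at least 1.13-fold higher, with each knockdown signal set to 3 times its own error (limma adjusted p = 0.124 for the measured values). *NFATC2*, a transcription factor switched on by calcium, gave 0.290 and 0.219 against 0.146 and 0.106, with no overlap (ratio 0.495, limma adjusted p = 0.162). The median log2 change of the list was -0.09, and 0 of its features had an adjusted p under 0.1.

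Genes reported elsewhere as beta-catenin and TCF targets ran in both directions. Of 52 features 36 were kept and 2 passed the 2-fold cutoff, against 2.38% of all kept features. *VEGFA*, the endothelial growth factor, was higher after knockdown (0.178 and 0.253 against 0.559 and 0.453, ratio 2.34, limma adjusted p = 0.126). *APCDD1*, a membrane protein that binds Wnt ligands and LRP5 and restrains the signal, was lower. It gave 0.0931 and 0.0877 in mock cells and 0.0362 and 0.0343 after knockdown (ratio 0.390, log2 change -1.36 ± 0.12, limma adjusted p = 0.0792). The groups of both genes stood apart, as did those of 23 of the 36 kept targets and 47.2% of all kept features. *CCND1*, which encodes cyclin D1, overlapped between the groups (5.50 and 6.19 against 6.53 and 5.63). The median log2 change of the 36 kept targets was -0.09, with 15 positive and 21 negative values.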

How the data were processed

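Expression was measured in LN229 cells after *SOX2* or mock knockdown, 2 arrays per group. The deposited scanner files hold, per the file headers, a normalized signal (a linear intensity), its S/N (used as a score) and flags for each feature. In the study's methods, raw intensities were averaged by gene ID, scaled to the 75th percentile of the chip and centred on the gene's median in GeneSpring. The authors also deposited a table of linear ratios, used as an alternative, of which 0 columns were left out. Scanner software and flag meaning are not given in the sources used here.

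Control features and 210 probes with a flag of 5000 or more were left out, 0 of them Wnt probes. Signals and S/N were averaged by gene ID, each array was divided by its 75th percentile, values were floored at 0.01 and log2 was taken. Features were kept if each array of one group or of both had an S/N over 3. Changes were tested with limma 3.58.1 (R 4.3.3; lmFit and eBayes, two-sided, no block) on all kept features, with Benjamini-Hochberg adjustment, after a test on simulated data, and tables were made with Python 3.11.15 and pandas 2.3.3. The precision is limited by 2 arrays per group. *WNT9A* (hCG42240.3) and *APC2* were not above background on either array of a group. Each such signal was set to 3 times its own error, which is the signal divided by its S/N. The fold was then taken from means of log2 values. This rule was chosen after seeing the data, since the dimmest signal above background was at the floor. It gave no bound for *FRZB*.

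The members and lists were chosen with earlier results of these data known. Values are given for kept members past 1.5-fold, for the intracellular genes, *LRP5* and *LRP6*, and for listed genes past 2-fold. Array symbols are old: of 54 Wnt probes 50 carry an accession and all 50 matched the same RefSeq symbol (GRCh38.p14), which also gave the promoters. Replicate numbers could not be shown to pair the arrays: over 18378 features, deviations from the group means of equally numbered arrays correlated at -0.499. Alternatives were quantile normalization, array medians, normexp, the table of ratios, other floors, filters and cutoffs, single probes, a variance trend, blocks and leaving out each array.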

Additional observations from a re-analysis of the deposited data

How the results depend on the processing

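Of all 18378 kept features 438 were past 2-fold, 176 with normexp background correction, and 9.86% were past 1.5-fold. Shares of all features with the other floor, the filter on all arrays and the 3-fold cutoff are not given here. The 2-fold count of 5 Wnt features became 1 with normexp, 3 with a floor of 0.05, 2 with S/N over 3 on all 4 arrays, 11 at 1.5-fold and 2 at 3-fold. It was between 5 and 6 with any 1 array left out: *FZD3* and *WNT9A* dropped out, and *FZD1* and *DKK2* came in, without mock array 2, *WNT9A* dropped out and *WNT5B* and *DKK2* came in without knockdown array 2, and *WNT7A* came in without mock array 1. *WNT9A* also missed the cutoff under quantile normalization, array medians and the table of ratios. *DKK1* passed 2-fold in each of these and its log2 change ran from 1.85 to 2.24, while normexp left *FRZB* at 0.42, *WNT9A* at 0.01, *FZD9* at -0.38 and *WNT5B* at 0.25, and the floor left *FRZB* at 0.03 and *WNT9A* at 0.21. The 2 listed pathway genes past 2-fold became 0 with normexp, 1 with the floor and 0 with S/N on all arrays, and 1 to 3 with 1 array left out. The 2 listed targets became 1 with normexp and 1 with the floor, and 1 to 3 with 1 array left out.

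By limma at an adjusted p under 0.05 the count of 0 Wnt features became 5 with array medians and 5 with the table of ratios. These were *DKK1*, *FRZB*, *FZD3*, *FZD9* and *WNT9A* in both. With a variance trend it became 2 (*DKK1* and *FZD9*). The share of all features went from 0.0% to 3.64%, 3.48% and 1.31% in that order. With array medians *DKK1*, *FZD9* and *DKK2* all had an SE of 0.283, and with the table of ratios 0.281. In the main fit the SE was 0.16 for *DKK1* and 0.72 for *DKK2*. The p-values with array medians and the table of ratios thus did not use each feature's own replicate spread. At an adjusted p under 0.1 the count of 2 became 7, 7 and 6 with array medians, the table of ratios and a variance trend. The shares of all features were 4.9%, 4.78% and 5.01%. With normexp, the floor or no filter the count was 0, and the share of all features was 0.0% in each. The cause was not tested. With a replicate block the count at an adjusted p under 0.1 was 0, against 0.0% of all features. The correlation of -0.499 was seen first and a crossed pairing then added, under which 9 Wnt features had an adjusted p under 0.1 (9.85% of all features) and 0 under 0.05.

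Log2 changes turned sign for *LEF1* with normexp (-0.039) and for *TCF7L2* on 1 of its probes (0.055). With 1 array left out, *AXIN2* ran from -0.24 to 0.13 (positive without mock array 1 or knockdown array 2), *TCF7* from -0.036 to 0.39 (negative without knockdown array 1), *TCF7L2* from -0.20 to 0.026 (positive without knockdown array 2) and *DKK2* from -1.40 to 0.23 (positive without mock array 1 or knockdown array 1). The turned values were all within 2-fold. In all, 12 of the 32 kept Wnt features turned sign when some array was left out, the others being *FZD1*, *FZD5*, *FZD10*, *WNT3A*, *WNT7A*, *WNT7B*, *WNT11* and *WNT9A* (hCG1984338). Positive ligands numbered 8 to 9 of 10 over the scalings and normexp and 5 to 10 with 1 array left out. The median log2 change of all features was between -0.03 and 0.00 over the scalings and -0.04 with normexp. Signals near background limit *FRZB*, *WNT9A*, *AXIN2* and *APC2* most.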

Other observations

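Genes of the wider Wnt lists that did not pass 2-fold are given here as values, picked after these were seen. *PTK7*, a pseudokinase co-receptor of the polarity branch, gave 1.32 and 1.38 in mock cells and 0.735 and 0.637 after knockdown (ratio 0.509, limma adjusted p = 0.101). *CELSR2*, a cadherin of the same branch, had a ratio of 0.604, *LGR4*, an R-spondin receptor, one of 0.643 and *TLE2*, a co-repressor of the TCF factors, one of 0.569. *PRICKLE1*, a cytoplasmic polarity protein, and *FRAT1*, an inhibitor of GSK3, were higher after knockdown with ratios of 1.55 and 1.51. In all of these the groups did not overlap, as in 36 of the 65 kept features of the pathway list and 47.2% of all kept features. Of the 65 kept features of the pathway list 12 had an unadjusted p under 0.05 by limma, 3 higher and 9 lower, against 17.2% of all kept features (8.12% higher and 9.07% lower).

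Among the reported targets *MYC* gave 0.862 and 1.03 in mock cells and 1.58 and 1.54 after knockdown (ratio 1.64, limma adjusted p = 0.138). The developmental factors *TBX3* and *MSX1* were also higher, with ratios of 1.76 and 1.52. The adhesion molecule *NRCAM*, the matricellular gene *CTGF*, the pigment cell factor *MITF* and the ligand *BMP4* were lower, with ratios of 0.553, 0.562, 0.611 and 0.629. Of the 36 kept targets 15 had an unadjusted p under 0.05 by limma, 8 higher and 7 lower, against the same 17.2%.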
